A study of Homo sapiens with 3 samples.

Results

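Genes that encode carriers of amino acids across the plasma membrane and the lysosomal membrane were read in 3 RNA-seq libraries of Jurkat, an established human line of T-lineage acute lymphoblastic leukaemia. The members are the rows whose symbol is SLC1A, SLC3A, SLC6A, SLC7A, SLC36A, SLC38A or SLC43A followed by digits, without SLC6A6. The rule found 29 of the 17329 genes measured, and 23 of these had a mean of at least 50 over the 3 libraries, which is called the floor below and was passed by 12292 genes in all. Cells had been cultured for 48 hours in RPMI medium with serum. The control culture had no addition, the oxamate culture received sodium oxamate at 50 mM, and the oxamate+lactate culture received the same oxamate plus L-sodium lactate at 10 mM. Oxamate inhibits lactate dehydrogenase, and the series asks how lactylation of histone H3, a mark that depends on lactate, bears on transcription. Each condition is 1 library of 1 cell line, so no difference here has a replicate check, and no test or p-value was computed. Of the members by name, some carry other substrates: SLC6A8 is a creatine carrier, SLC6A16 an orphan carrier and SLC43A3 a carrier of nucleobases.

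Most amino acids cannot cross a membrane unaided, and a cell's uptake is set by which carriers it makes. Exchangers such as LAT1 (SLC7A5 bound to its heavy chain SLC3A2) swap an internal amino acid for an external one, sodium-coupled carriers such as those of SLC38 load the cell against the gradient, and lysosomal carriers return amino acids from broken-down protein and signal to the kinase mTORC1. T cells and their leukaemias are known for high LAT1 and ASCT2 (SLC1A5), and the transcription factor ATF4 induces several of these carriers when amino acids are short.

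The values are normalized counts as the authors deposited them. They sum over genes to between 8171633 and 8821115 per library, and the sources used here do not give the reads behind them, so the depth is unknown. Differences between libraries are given as log2 ratios of (value + 1), which slightly understate the change of low genes. Among 18 ERCC spike-in RNAs with a mean of at least 100, which show handling after RNA extraction but not the spread between cultures, the SD of the log2 ratio was 0.13 for oxamate against control, 0.11 for oxamate+lactate against oxamate and 0.19 for oxamate+lactate against control. The median ratio of all genes over the floor was 0.08, -0.09 and -0.01 in these comparisons. Of 17 T-lineage markers, 13 were over the floor, among them CD3E, LCK and PTPRC. Of 5 B-lineage markers 1 was, CD79A, and of 4 fibroblast markers 1 was, COL1A1, at 202, 202 and 165 normalized counts in control, oxamate and oxamate+lactate. Of 5 epithelial markers 2 were measured, both under the floor, with summed values of 92, 96 and 83. None of the myeloid and erythroid markers listed was measured.

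The glycine carrier SLC6A9, the leucine carrier SLC43A1, the neutral exchanger SLC1A4, the cystine carrier SLC7A11 and the heavy chain SLC3A2 had oxamate values 1.5-fold or more below control, and SLC7A8, SLC38A7 and SLC1A3 values 1.5-fold or more above it. These 5 lower members are 21.7% of the 23 over the floor, where 3.98% of all genes over the floor were 1.5-fold lower. Among the 5, SLC3A2 (log2 ratio -0.60) and SLC7A11 (-0.61) lay close to the cutoff, 0.585 in size, where the ERCC SD was 0.13. The 3 higher members are 13.0%, against 7.48% of all genes. With 10 mM lactate beside oxamate, 0 of 23 members differed 1.5-fold from oxamate alone, where 0.252% of all genes were higher and 0.903% lower. Against control, oxamate+lactate had 2 members 1.5-fold lower, SLC6A9 and SLC43A1 (3.07% of all genes), and 2 higher, SLC7A8 and SLC1A3 (2.99% of all genes). Both of these had control values under 50 and passed the floor through the treated libraries, so the counts of higher members rest in part on the floor and support nothing. With a floor of 200 they were 1 for oxamate against control (5.96% of all genes) and 0 for oxamate+lactate against control (1.45%). At 2-fold, oxamate had 2 members lower than control, SLC6A9 and SLC43A1 (0.879% of all genes), and 1 higher, SLC7A8 (1.21%). At that fold 0 members differed in oxamate+lactate against oxamate (0.00814% of all genes lower and 0.0% higher) or against control (0.342% lower and 0.545% higher). The median ratio of the 23 members was -0.06 for oxamate against control, -0.02 for oxamate+lactate against oxamate and -0.11 for oxamate+lactate against control. The second of these changes sign when the libraries are scaled to equal gene totals (0.09) or to equal ERCC sums (0.05). The comparisons share libraries, so their values are set side by side and are not independent of each other.

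**Figure D1:**
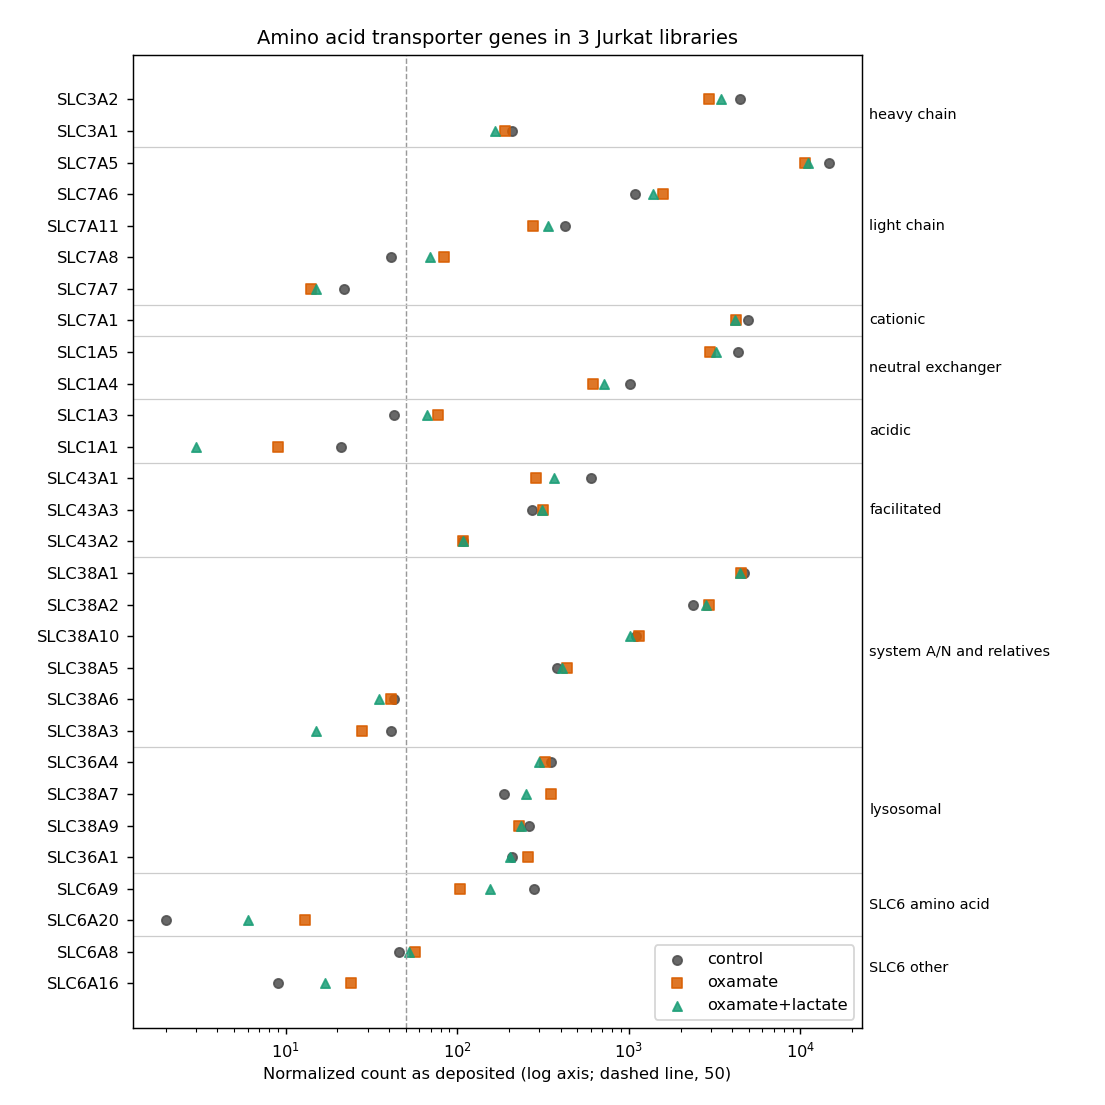
Normalized counts (horizontal log axis) of the 29 transporter genes, ordered by role, with 1 point per library: circles for control, squares for oxamate and triangles for oxamate+lactate, and a dashed line at a value of 50. SLC7A5 lies farthest to the right, at 14610, 10590 and 10998, and SLC6A9 and SLC43A1 show the widest gaps between control and oxamate among the genes to the right of the dashed line.

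Since ATF4 is known to induce several of the members, the start sites of all members with a sequence were searched for the C/EBP-ATF response element to which ATF4 binds, read as TGATGNAA on either strand. RefSeq windows of assembly GRCh38.p14, from 250 bases before to 50 after an annotated start, were matched to 25 of the 29 members, and not for SLC7A11, SLC3A1, SLC38A3 and SLC43A3. The letters occurred in 6 of these 25 members, and in 4.46% of the 27305 genes with a window. The 25 members had 46 windows and the 27305 genes 35116, so more sequence was searched per member. Counted by window, the letters were in 6 of 46 member windows and in 3.62% of all windows. Over the floor they were in 6 of 20 such members and in 2.58% of 8427 genes. In the lines below, 30 bases are shown on the gene's own strand around each match, which stands in capitals in its own or its reverse complement letters. Positions count from the start, with -1 as the base before it.
SLC1A4, chr2:64989381-64989410, + strand, match from -7: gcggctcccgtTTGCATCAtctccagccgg
SLC1A5, chr19:46784893-46784922, - strand, match from -97: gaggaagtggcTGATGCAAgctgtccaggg
SLC3A2, chr11:62881719-62881748, + strand, match from 38: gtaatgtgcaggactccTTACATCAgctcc
SLC7A1, chr13:29595663-29595692, - strand, match from 8: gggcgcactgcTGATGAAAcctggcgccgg
SLC38A1, chr12:46266502-46266531, - strand, match from -4: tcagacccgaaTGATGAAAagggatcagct
SLC1A3, chr5:36596357-36596386, + strand, match from -220: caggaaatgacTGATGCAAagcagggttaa
SLC6A9, SLC7A5 and SLC38A2, also listed as induced by ATF4, had windows without these letters. Oxamate ratios against control at these genes were -0.72 (SLC1A4), -0.6 (SLC3A2), -0.53 (SLC1A5), -0.24 (SLC7A1), -0.06 (SLC38A1) and 0.83 (SLC1A3). SLC1A3 alone had a positive ratio, and with 43 in control it passed the floor through the treated libraries. SLC1A5 and SLC3A2 have 3 annotated starts each, and the match lies at 1 of them. SLC1A4, SLC1A3 and SLC38A1 also have more than 1 annotated start, and there too the match lies at 1. A match is a description of these letters and not a binding site, and hg19 is the build named for the deposited table, so these coordinates apply to the sequences alone.

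Most light chains of family SLC7 reach the plasma membrane bound to a heavy chain of family SLC3. SLC3A2 (CD98), the partner of most light chains, had normalized counts of 4432 in control, of 2915 in oxamate and of 3434 with lactate added. Values of the other members follow in this order of libraries. That is 1.52-fold lower in oxamate than in control (log2 ratio -0.60), with -0.37 for oxamate+lactate against control, and control is the highest library. SLC3A1, which pairs with a cystine carrier of kidney and gut, had 208, 189 and 166, with -0.14 for oxamate against control. SLC3A1 shares exon sequence with PREPL on the opposite strand (543, 521 and 506). No strand mark of the libraries is known here, so reads of the shared stretch may not be told apart.

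The light chains differed in direction. SLC7A5 (LAT1), the importer of leucine and other large neutral amino acids, had 14610, 10590 and 10998, which is 1.38-fold lower in oxamate than in control (-0.46) and 0.05 for oxamate+lactate against oxamate. It made up 34.7%, 30.5% and 31.1% of the summed value of the 29 members in the 3 libraries. The treated libraries lay close to each other and below control. Pseudogene copies of SLC7A5 exist, so its reads may be split with them. The copy SLC7A5P1 had 25, 44 and 26.

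SLC7A11 (xCT), which imports cystine for glutathione synthesis in exchange for glutamate, had 422, 276 and 339. It was 1.53-fold lower in oxamate than in control (-0.61) and at -0.32 in oxamate+lactate against control. The antisense gene SLC7A11-AS1, which overlaps it, had 69, 40 and 50 (-0.77 for oxamate against control), in the same order of libraries. With ratios adjusted for GC content and for the length of transcripts, a setting added after the data were seen, the ratio of SLC7A11 was -0.50 and no longer past 1.5-fold.

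SLC7A6 (y+LAT2), an exchanger of cationic for neutral amino acids, was higher in oxamate, with 1083, 1589 and 1380 (0.55 for oxamate against control, 1.47-fold). Its opposite-strand neighbour SLC7A6OS had 787, 1177 and 959 (0.58), again in the same order, and part of either value may be reads of the other. SLC7A8 (LAT2), a relative of LAT1 with a wider choice of neutral amino acids, had 41, 84 and 69. It was 2.02-fold higher in oxamate than in control and 1.67-fold higher in oxamate+lactate than in control, but its control value is under 50 and it passed the floor through the treated libraries. SLC7A7 (y+LAT1) stayed under the floor at 22, 14 and 15. Summed over SLC7A5, SLC7A6, SLC7A7, SLC7A8 and SLC7A11, the light chains had 16178, 12553 and 12801, and SLC7A5 is the largest term in each library.

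The cationic carrier SLC7A1 (CAT1), the main route for arginine and lysine in many cells, had 4975, 4227 and 4178. Its ratio was -0.24 for oxamate against control and -0.02 for oxamate+lactate against oxamate, so the treated libraries were again close to each other and below control. Within the SLC7 rows its share of the summed value was 23.5%, 25.2% and 24.6%.

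Both neutral exchangers of family SLC1 were lower in the treated libraries than in control. SLC1A5 (ASCT2), the sodium-dependent exchanger of glutamine, had 4315, 2988 and 3202 (1.44-fold lower in oxamate, -0.53). SLC1A4 (ASCT1), which prefers serine, alanine and cysteine, had 1016, 618 and 718, and was 1.64-fold lower in oxamate than in control (-0.72) and 1.41-fold lower in oxamate+lactate. For both genes, oxamate+lactate lies between oxamate and control and nearer to oxamate. SLC1A5 passed 1.5-fold when libraries were scaled to equal gene totals (-0.63) and when the GC and length trend was removed (-0.68).

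The acidic carriers, which take up glutamate and aspartate, were low in these cells. SLC1A3 (EAAT1) had 43, 77 and 67, which is 1.77-fold higher in oxamate and 1.55-fold higher in oxamate+lactate than in control. Like SLC7A8, it passed the floor with a control value under 50. With a pseudocount of 10 its ratio for oxamate+lactate against control was 0.54, below 1.5-fold. SLC1A1 (EAAT3) had 21, 9 and 3, under the floor in each library.

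**Figure D2:**
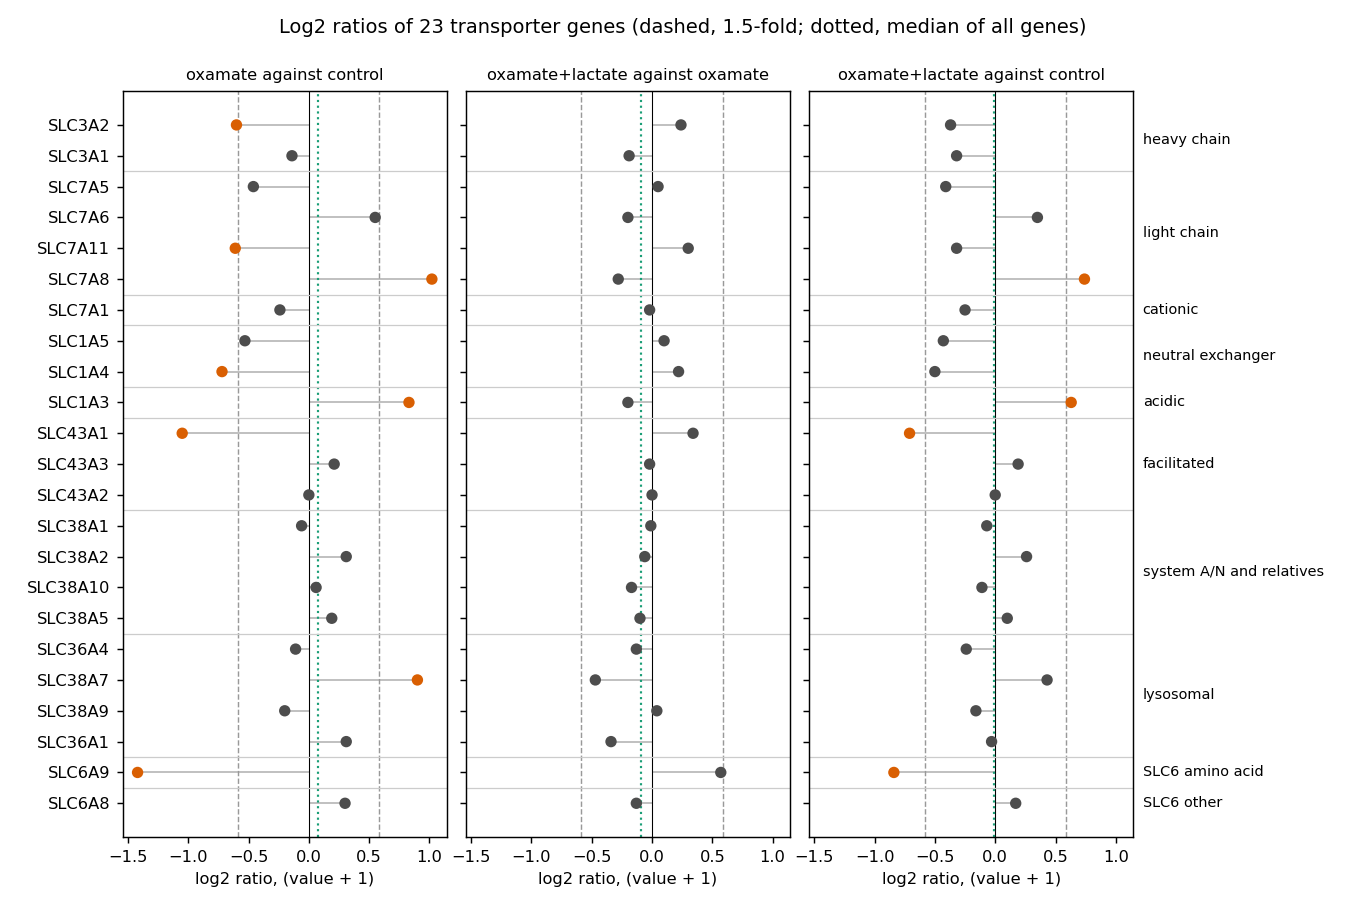
Log2 ratios (horizontal axes) of the 23 members over the floor in the 3 comparisons, with orange points for ratios past 1.5-fold (dashed lines) and a dotted line at the median of all genes over the floor. In the left panel SLC6A9 (-1.42) and SLC43A1 (-1.05) lie farthest left and SLC7A8 (1.02) farthest right, and in the middle panel no point passes a dashed line.

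SLC43A1 (LAT3), a facilitated carrier of branched-chain amino acids that needs no exchange partner, had 601, 289 and 366. It was 2.08-fold lower in oxamate than in control (-1.05), and 0.65% of genes over the floor had a lower ratio. In oxamate+lactate it was 1.64-fold lower than in control (-0.71) and 1.27-fold higher than in oxamate. Its relative SLC43A2 (LAT4) had 108 in each library, and SLC43A3 had 274, 317 and 313. Among the 3 genes of this family, SLC43A1 alone differed by 1.5-fold in any comparison.

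SLC6A9 (GlyT1), the sodium- and chloride-coupled importer of glycine, showed the lowest ratio of the members. It had 279, 104 and 155 in the control, oxamate and oxamate+lactate libraries, 2.67-fold lower in oxamate than in control (-1.42), a ratio undercut by 0.22% of genes over the floor. Oxamate+lactate was 1.49-fold above oxamate (0.57), and 99.71% of genes over the floor had a lower ratio in that comparison. This value passes 1.5-fold when libraries are scaled to equal gene totals (0.68) or to equal ERCC sums (0.63), and when the GC and length trend is removed (0.62). It stayed 1.79-fold lower than control. CCDC24, which overlaps it on the opposite strand, had 37, 48 and 55 and so had its lowest value in control. The creatine carrier SLC6A8 had 46, 57 and 52, and its mean of 51.7 was the nearest above the floor, where that of SLC38A6, 39.7, was the nearest below it. With a control value under 50, SLC6A8 too passed the floor through the treated libraries. SLC6A20, a carrier of proline and related imino acids, had 2, 13 and 6, and SLC6A16 had 9, 24 and 17.

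Of the SLC38 genes over the floor, SLC38A7 alone differed 1.5-fold in any comparison. SLC38A1 (SNAT1), a sodium-coupled importer of glutamine and other small neutral amino acids, had 4675, 4485 and 4459, with a ratio of -0.06 for oxamate against control. SLC38A2 (SNAT2), which is known to be induced when amino acids are withdrawn and under osmotic stress, had 2364, 2938 and 2822. It was 1.24-fold higher in oxamate than in control (0.31), while the 7 other measured carriers listed as induced by ATF4 had negative ratios. SLC38A5 (SNAT5), a carrier of glutamine, histidine and asparagine, had 383, 438 and 410, and SLC38A10 had 1093, 1140 and 1011. Summed over its 8 genes the family had 9048, 9649 and 9239, a log2 ratio of 0.09 for oxamate against control that becomes -0.01 with equal gene totals. The summed SLC7 genes were at -0.33 (-0.44 with equal gene totals) and the summed SLC1 genes at -0.55 (-0.65). SLC7A5 made up 69.1% of the SLC7 sum in control, and SLC1A5 made up 4315 of the SLC1 sum of 5395 there. SLC38A3 had 41, 28 and 15, and SLC38A6 had 43, 41 and 35, both under the floor. SLC38A6 overlaps TRMT5 and SLC6A8 overlaps PNCK on the opposite strand, and an antisense gene lies opposite SLC38A10 and SLC7A5, so these values may hold reads of those neighbours too.

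Of the lysosomal carriers, SLC38A7, which exports glutamine from the lysosome, had 187, 351 and 253 in the control, oxamate and oxamate+lactate libraries. It was 1.87-fold higher in oxamate than in control (0.90), 1.39-fold lower in oxamate+lactate than in oxamate (-0.47) and 1.35-fold higher in oxamate+lactate than in control. SLC38A9, the arginine sensor that couples the lysosome to mTORC1, had 262, 228 and 234 (-0.20 for oxamate against control). SLC36A1 (PAT1), a proton-coupled carrier of small amino acids, had 208, 258 and 204, and SLC36A4 (PAT4) had 351, 326 and 298.

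The E-box CACGTG, a palindrome bound by MYC and by the lysosomal factors TFEB and TFE3, was searched in the same windows. It occurred in 9 of the 25 members with a window and in 8.77% of genes with one, or in 9 of 46 member windows and 7.26% of all windows. Over the floor it was in 7 of 20 such members, and in 13.3% of 8427 genes. It is shown in capitals for lysosomal members and, of the other holders over the floor, for SLC7A5 and those with a 2-fold difference, 30 bases each, on the gene's strand and the same assembly.
SLC38A7, chr16:58684739-58684768, - strand, match from 15: gtgatgcatgctCACGTGtctccgcagccg
SLC36A1, chr5:151447548-151447577, + strand, match from -43: cgctcaagggagCACGTGacctcggcctct
SLC36A1, chr5:151447583-151447612, + strand, match from -8: gggcggtgggatCACGTGatgaggtccgga
SLC7A5, chr16:87869620-87869649, - strand, match from -130: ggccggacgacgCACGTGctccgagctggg
SLC43A1, chr11:57515797-57515826, - strand, match from -112: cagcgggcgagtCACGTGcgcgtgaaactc
SLC7A8, chr14:23154505-23154534, - strand, match from -129: cacaattagaaaCACGTGctcagttccttc
The 7 members over the floor with these letters had oxamate ratios from -1.05 (SLC43A1) to 1.02 (SLC7A8). Among them, SLC1A5 (-0.53) and SLC38A5 (0.19) are not shown above. SLC7A8 passed the floor through the treated libraries, and the next highest of these ratios was 0.9 at SLC38A7. The other motifs searched were the shorter TGATG, in 14 of the 25 members and 37.7% of genes, CACATG, in 5 members and 13.4%, and the antioxidant element read as TGACNNNGC, in 7 members and 16.1%. Counted by window, TGATG was in 18 of 46 member windows and 32.9% of all windows. By the same count CACATG was in 6 of 46 and 11.1%, and TGACNNNGC in 7 of 46 and 13.3%. TGATGNAA holds the letters of TGATG, so these matches overlap.

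Per kilobase of the longest GENCODE 29 transcript, SLC7A5 had the highest level in each library, followed by SLC3A2 and SLC1A5. SLC7A5 had 3220, 2334 and 2424 normalized counts per kilobase, SLC3A2 had 1995, 1312 and 1546, and SLC1A5 had 1497, 1037 and 1111. The next 3 places were held by SLC7A1, SLC38A1 and SLC38A2, between 483.6 and 677.1 per kilobase in control. SLC38A2 was the lowest of these 3 in control, at 483.6, and the highest in oxamate, at 601.1, but SLC7A1, SLC38A1 and SLC38A2 lay within 556.0 to 601.1 in oxamate, and 1 library each cannot order them. SLC6A9 went from 89.1 in control to 33.2 in oxamate, and SLC38A7 from 41.1 to 77.2. The longest transcript of SLC7A11, at 9645 nucleotides, lowers its level per kilobase where shorter transcripts are made. The order rests on such lengths, 2222 for SLC3A2 and 2882 for SLC1A5 against 7347 for SLC7A1 and 8066 for SLC38A1. Not divided by length, SLC7A1 (4975) and SLC38A1 (4675) exceeded SLC3A2 (4432) and SLC1A5 (4315) in control.

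**Figure D3:**
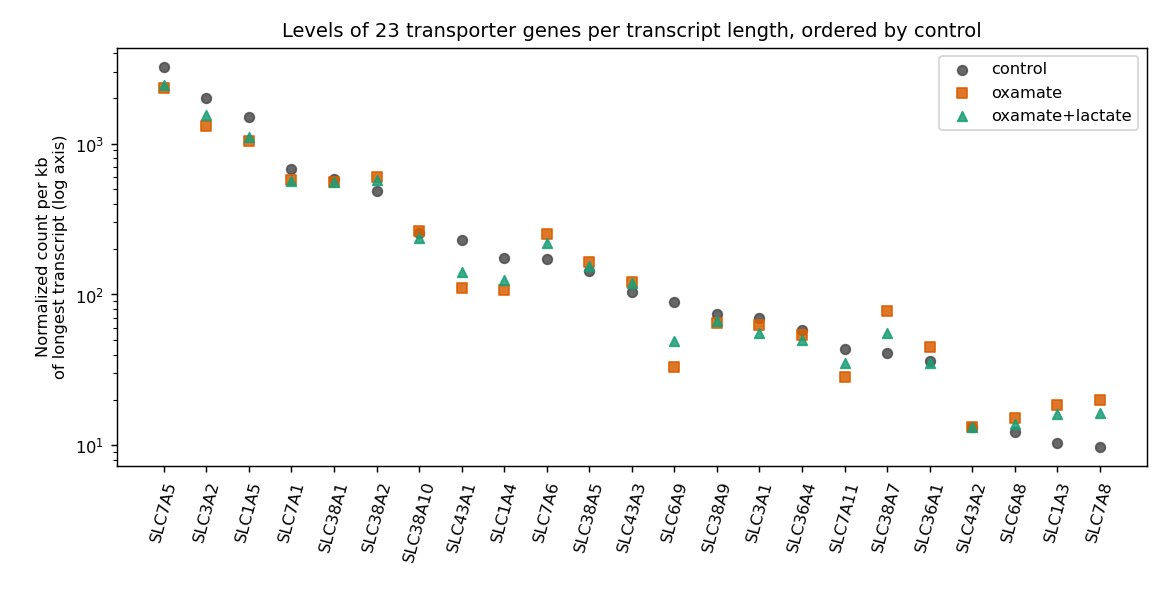
Normalized counts per kilobase of longest transcript (vertical log axis) for the 23 members over the floor, ordered by control, with circles for control, squares for oxamate and triangles for oxamate+lactate. SLC7A5, SLC3A2 and SLC1A5 lead in each library, and SLC6A9, SLC43A1 and SLC1A4 have their lowest point in oxamate.

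Taken as a sum, the 29 members held 0.512%, 0.394% and 0.432% of the gene totals of control, oxamate and oxamate+lactate. The sums were 42114, 34721 and 35327, a log2 ratio of -0.28 for oxamate against control and 0.02 for oxamate+lactate against oxamate. With equal gene totals these ratios were -0.38 and 0.14. A sum weighs the highest members most, and the median ratio of the 23 members over the floor was -0.06 for oxamate against control.

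Of 9 carriers listed as induced by ATF4, 8 were measured, each over the floor. In oxamate against control 4 of the 8 were 1.5-fold lower (SLC6A9, SLC1A4, SLC7A11 and SLC3A2), where 3.98% of all genes were, 7 lay below the median of all genes, and the list median was -0.57, against 0.08 for all genes. Of the 4, SLC7A11 (-0.61) and SLC3A2 (-0.60) lay close to the cutoff. The 15 other members had a median of 0.19. SLC43A1 was 1.5-fold lower (3.98% of all genes were) and SLC1A3, SLC7A8 and SLC38A7 were 1.5-fold higher (7.48%). SLC1A3, SLC7A8 and SLC6A8 had control values under 50 and passed the floor through the treated libraries. The median of the 15 rests in part on that floor, and the count of higher ones supports nothing. In oxamate+lactate against oxamate the 8 had a median of 0.16, against -0.09 for all genes, and the 15 others -0.13. In oxamate+lactate against control the medians were -0.39 and 0.00, against -0.01 for all genes. The list was chosen with results of these data known, so its direction is a description.

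**Figure D4:**
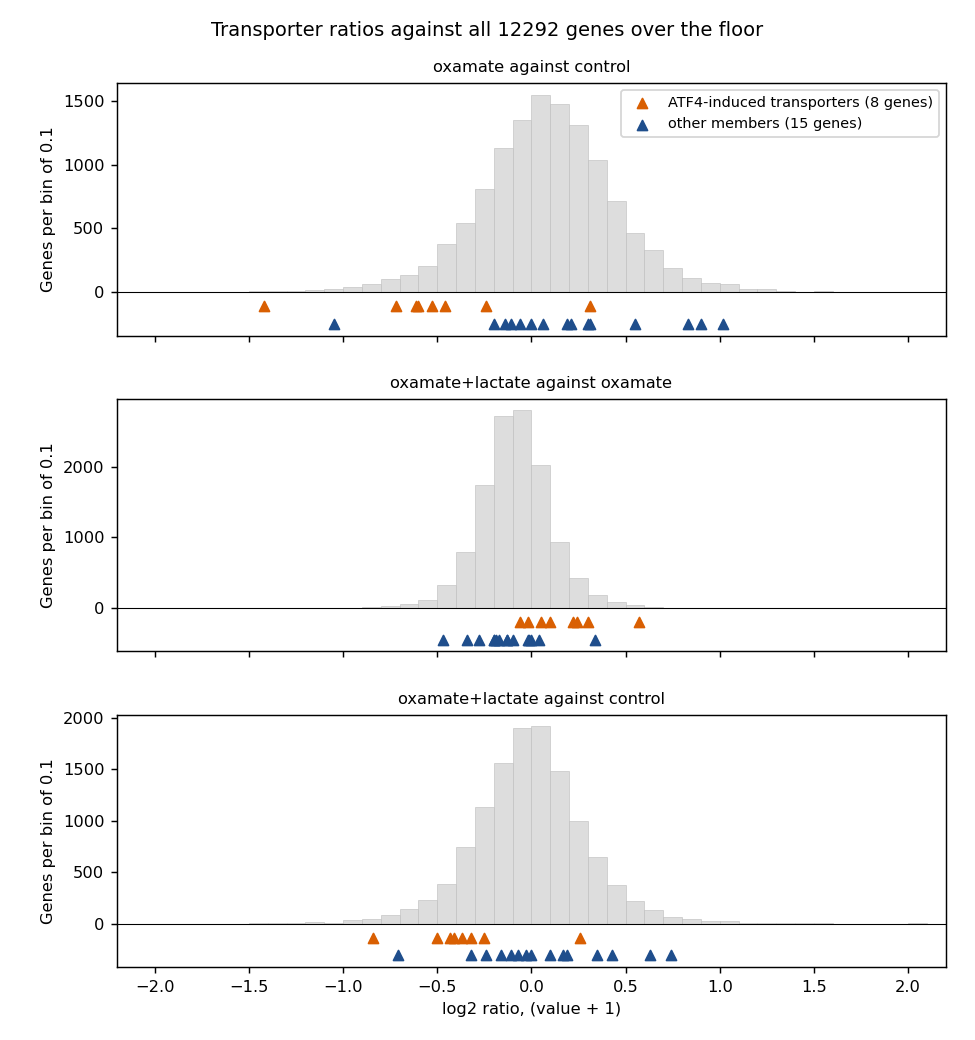
Histograms of the log2 ratios (horizontal axis) of the 12292 genes over the floor, in bins of 0.1, with triangles below for the 8 ATF4-induced transporters (upper row, orange) and the 15 other members (lower row, blue). In the top panel 7 orange triangles lie left of 0 and SLC38A2 (0.31) right of it, while blue triangles span -1.05 to 1.02.

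Of the regulators of the amino acid response, ATF4 itself had 4690, 3570 and 3586, a ratio of -0.39 for oxamate against control. Of 18 genes of this axis, 6 were 1.5-fold lower in oxamate than in control and 0 higher, where 3.98% of all genes were lower and 7.48% higher. Their median was -0.31, against 0.08 for all genes. In oxamate+lactate 2 of the 18 were 1.5-fold higher than in oxamate, where 0.252% of all genes were. ATF5, a factor induced by ATF4, and ASNS, asparagine synthetase, had ratios of -2.11 and -2.09 for oxamate against control, and the pseudokinase TRIB3 had -1.92. DDIT3, which encodes CHOP, had 226, 136 and 144 (-0.73). The kinase EIF2AK4 (GCN2), which senses uncharged tRNA, had 971, 1010 and 895 (0.06). Thus ASNS, ATF5 and TRIB3 had lower ratios than SLC6A9, the lowest of the carriers. The part of ATF4 in the carriers' values was not tested.

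The 34 measured genes listed for lysosomal amino acid sensing by mTORC1 were each over the floor. This list also holds parts of mTORC1 itself, other regulators of it and factors of lysosomal genes. Of the 34, 1 was 1.5-fold higher and 0 lower in oxamate than in control. Among all genes, 7.48% were higher and 3.98% lower. Their median was 0.11, against 0.08 for all genes. The higher gene was KPTN, a subunit of the KICSTOR scaffold, with 132, 254 and 188 (0.94). In oxamate+lactate against control TFEB, a factor of lysosomal genes, was 1.5-fold lower, as were 3.07% of all genes, with 104, 70 and 66 (-0.65). MTOR itself had 1201, 1736 and 1415 (0.53 for oxamate against control).

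Among factors listed as regulators of these carriers, MYC was 1.5-fold higher in oxamate than in control (0.95) and so was KEAP1, the inhibitor of the antioxidant factor NRF2, with 375, 587 and 513 (0.65). YAP1, a factor of the Hippo pathway, was lower, with 173, 105 and 150 (-0.72). These 3 are the genes of 9 on that list past 1.5-fold, where 7.48% of all genes were higher and 3.98% lower.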

How the data were processed

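Polyadenylated RNA of 3 Jurkat cultures was sequenced, 1 library per condition. The deposited values are a score: whole numbers that the authors call normalized counts, taken as read counts normalized and then rounded. The submitters' processing notes name the build hg19 and, with no roles, HTSeq 0.11.2, STAR 2.7.1a and FastQC 0.11.9. The sources used here do not give the annotation or how values were normalized. Depth in reads is unknown, so no interval is given, and a scaling error shared by a library would shift its ratios.

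Of 17365 rows, 36 ERCC rows were set aside. Ratios are log2 of (value + 1), for genes with a mean of at least 50, and a difference of 1.5-fold was counted. There is no test, since each condition has 1 library. The ratio script was tested on simulated data. Every member over the floor is named with its values, as are lower members with a value of at least 10. Of each context list, up to 4 genes past 1.5-fold may be named, taken by the size of the oxamate ratio. CD3E, LCK, PTPRC, CD79A, COL1A1, ATF4, EIF2AK4 and MTOR were named after their values were seen. The members and lists were chosen with earlier results of these data known. Transcript lengths, GC content and overlaps came from GENCODE 29 (some overlaps are not reported here), and start-site windows from RefSeq (GRCh38.p14). Their build differs from that of the deposited table, and positions are given for those windows alone. Alternatives were another pseudocount, floor, fold and scaling, and removal of the GC and length trend. Computation used Python 3.11.15 with pandas 2.3.3 and numpy 2.4.6.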

Additional observations from a re-analysis of the deposited data

How the results depend on the processing

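No paired analysis was possible because each condition has 1 library. The 5 members 1.5-fold lower in oxamate than in control were 2 with a fold of 2 (SLC43A1 and SLC6A9, 0.879% of all genes). They were 7 with a floor of 10 (7.65%) and 4 with a floor of 200 (1.95%). With equal gene totals (5.71%), ratios relative to the median of all genes (5.33%) or the GC and length trend removed (3.99%) they were 6. The 3 higher were 1 with a fold of 2 (1.21%), 1 with a floor of 200 (5.96%) and 4 with a floor of 10 (11.0%). For oxamate+lactate against control, the 2 higher members became 1 with a pseudocount of 10 (2.41% of all genes). They became 0 with a floor of 200 (1.45%) or a fold of 2 (0.545%). The 2 lower ones became 4 with a floor of 10, 1 with a floor of 200 and 0 with a fold of 2. The share of all genes went from 3.07% to 7.44% and 1.21% at those floors and to 0.342% at that fold. For oxamate+lactate against oxamate, 1 member (SLC6A9) was 1.5-fold higher with equal gene totals (0.635% of all genes) or equal ERCC sums (0.456%). The same held with ratios relative to the median of all genes (0.537%) or the GC and length trend removed (0.289%). In this comparison 2 members were lower with a floor of 10 (SLC1A1 and SLC38A3), where 3.68% of all genes were. A floor or fold changes which genes can be counted. Equal gene totals moved the median of all genes from 0.08 to -0.02 for oxamate against control and from -0.09 to 0.02 for oxamate+lactate against oxamate, and the 1.5-fold background for oxamate against control from 7.48% to 4.63% higher and from 3.98% to 5.71% lower. Under that scaling 5 member ratios changed sign in oxamate+lactate against oxamate, the largest of them 0.10 in size, so signs of small ratios in that comparison are not fixed. With the GC and length trend removed, SLC7A5 passed 1.5-fold for oxamate against control (-0.64). No member past 1.5-fold changed sign under the settings run.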

Other observations

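Genes listed as carriers of amino acids and peptides outside the 7 families lay above the median of all genes in oxamate against control in 7 of 9 cases over the floor. Of these 9, 4 were at least 1.5-fold higher (7.48% of all genes over the floor were) and 0 lower, with a median log2 ratio of 0.46 against 0.08 for all genes. SLC15A2, a peptide importer, had 50, 86 and 57 normalized counts in control, oxamate and oxamate+lactate (0.77). SLC15A4, a lysosomal carrier of histidine and peptides, had 178, 296 and 281 (0.73), SLC29A3, a lysosomal nucleoside carrier, had 86, 136 and 109 (0.66), and CTNS, which exports cystine from the lysosome, had 187, 289 and 262 (0.63). SLC15A4 was also 1.5-fold higher in oxamate+lactate than in control (0.66). The list holds carriers of other substrates and was chosen with results of these data known.

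Of 8 genes listed as ubiquitin ligases and arrestins that bear on the trafficking of carriers, 2 were 1.5-fold lower and 1 higher in oxamate than in control. Of all genes, 3.98% were lower and 7.48% higher. The arrestin ARRDC3 was lower (-2.07), and so was NEDD4, a ubiquitin ligase, with 547, 356 and 354 (-0.62). The arrestin ARRDC2 had 189, 332 and 308 (0.81).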
